A study of Saccharomyces cerevisiae with 55 samples.

Results

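The 4 triple mutants of yeast histone H4 were compared according to whether lysine 16 was among the 3 substituted residues. In each strain 3 of the lysines 5, 8, 12 and 16 of the H4 tail were replaced by arginine. K5,8,16R, K5,12,16R and K8,12,16R carry K16R together with a pair of the other substitutions, whereas K5,8,12R keeps lysine 16. The comparison was the mean of the 3 mutants with K16R, each weighted equally, minus K5,8,12R, so that both sides carry the same number of substitutions. The members were all 16 arrays whose titles name one of these mutants, of 55 arrays (54 samples) in the series. They comprised 3 arrays of K5,8,16R, 4 of K5,12,16R, 4 of K8,12,16R and 5 of K5,8,12R.

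Each 2-colour array compared RNA of a mutant strain of Saccharomyces cerevisiae with RNA of a parental strain with intact H4, named MDY453 or MDY470. K5,8,16R was represented by strains MDY466 and MDY483, K5,12,16R by MDY467 and MDY484, K8,12,16R by MDY468 and MDY485, and K5,8,12R by MDY465 and MDY482. MDY483, MDY485 and MDY482 were each hybridised once against MDY470 and the other 13 arrays were against MDY453. Thus 1 of the 5 K5,8,12R arrays and 2 of the 11 arrays with K16R used MDY470, and no K5,12,16R array did. The labels give total RNA and no growth condition, mating type, age of culture or further genotype. The ratios are read as likely mutant over parental, since channel 1 always held the parental RNA; the direction is not stated in the sources used here.

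The N-terminal tail of histone H4 protrudes from the nucleosome, and its lysines are acetylated and deacetylated by enzyme complexes. Arginine keeps the positive charge but cannot be acetylated. Lysine 16 is the residue that the SAS complex acetylates and Sir2 deacetylates, and its unacetylated state is bound by the silencing protein Sir3 at the silent mating cassettes and near telomeres. Haploid cells of mating type a transcribe a-specific genes, those of type alpha transcribe alpha-specific genes, and both kinds transcribe haploid genes of the pheromone pathway. When the information of both mating types is expressed together, as in a diploid, the a1/alpha2 repressor shuts off the haploid genes.

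After each array was centred on its median, the correlation across genes between arrays of one mutant had a median r of 0.883 (0.806 to 0.929, 25 pairs). Arrays of different mutants with K16R had a median r of 0.819 (40 pairs), and an array with K16R and one of K5,8,12R had a median of 0.722 (0.602 to 0.793, 55 pairs). These values describe the arrays, since genes are not independent replicates and all arrays share a parental reference. No pair of arrays was identical. Precision is limited by the number of arrays, and spot intensities were not used here. The labels call some arrays biological replicates and leave the rest open. The third K5,12,16R array is marked as technical replicate 2 of its biological replicate; a technical replicate 1 was not analysed here. The p-values thus reflect the spread between these arrays and strains, which may in part be technical.

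Of 5540 genes, 931 differed between the mutants with K16R and K5,8,12R at an adjusted p under 0.05 (16.8%, limma with the mutant strain as random block). There were 543 genes lower with K16R (9.80%) and 388 higher (7.00%). The lower genes included the large differences: 40 were at least 2-fold lower and 0 were at least 2-fold higher. In 891 of the 931 genes all 3 mutants with K16R lay on the same side of K5,8,12R. Among 5457 genes measured on all 16 arrays, the 11 arrays with K16R all lay below the 5 arrays of K5,8,12R for 182 genes (3.34%) and all above them for 87 (1.59%). Within the 13 arrays against MDY453 the fit called 152 genes, and within the 3 arrays against MDY470 it called 618, a set with 1 array per mutant whose spread is taken from the other mutants. Of the 931 genes, 927 of the 928 with a value kept their sign within MDY453 and 918 of 922 within MDY470. The same arrays took part in calling the 931 genes, so these kept signs are a description and not a separate check. Here and below, the K16R side within MDY470 is the mean of K5,8,16R and K8,12,16R only. The counts of lists given below for such settings changed against a background that changed too. Over all genes, the 543 lower and 388 higher became 119 and 33 within MDY453. They became 274 and 142 after all arrays were scaled to the same spread, and 453 and 274 without the first K5,8,12R array.

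**Figure D1:**
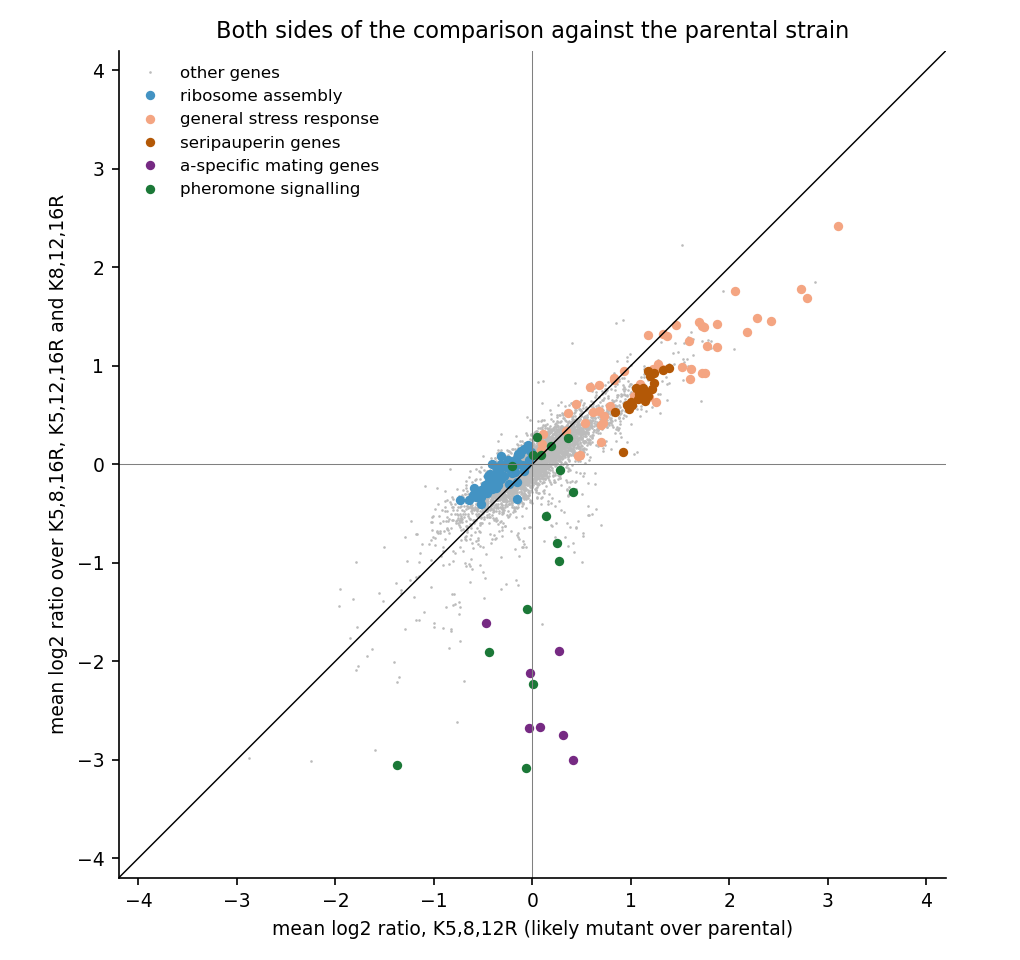
Each point is a gene, placed by its mean log2 ratio in K5,8,12R (x axis) and its mean over the 3 mutants with K16R (y axis); the diagonal marks equal means. The a-specific genes lie far below the diagonal with K5,8,12R close to 0, general stress genes lie on the right and mostly below the diagonal, and ribosome assembly genes lie on the left and above it.

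Which side had left the parental level differed between groups of genes. A mean log2 ratio of at least 0.5 in size was counted as away from the parental strain. Among the 543 lower genes, 64 were away with K16R alone, 117 were away in K5,8,12R alone, 172 were away in both in the same direction, 7 in opposite directions, and 183 lay within 0.5 on both sides. Among the 388 higher genes, 97 were away in K5,8,12R alone, 10 with K16R alone and 30 in both in the same direction, while 251 lay within 0.5 on both sides. In 717 of the 931 genes both means had the same sign, and in 580 of these K5,8,12R was the farther from the parental strain. This leaning was not confined to called genes. Over all genes, 547 were up and 361 down by at least 0.5 in K5,8,12R, against 346 and 284 in the mean with K16R. That mean averages mutants that differ among themselves. The SD over genes of the log2 ratios was 0.412 on average in the 6 strains with K16R and 0.451 in the 2 strains of K5,8,12R. This difference of -0.0389 did not pass an exact two-sided permutation test over strains (p = 0.357, the smallest possible being 0.0714).

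The a-specific mating genes were lower in all 3 mutants with K16R and near the parental level in K5,8,12R. All 7 measured members passed the test as lower, against 9.80% of all genes, with a median difference of -2.64 against 0.00 over all genes. In all 7 the arrays with K16R lay below those of K5,8,12R without overlap, against 3.34% of the genes measured on all 16 arrays. MFA2, which encodes the a-factor pheromone, had log2 ratios of -2.24, -2.78 and -2.70 on the K5,8,16R arrays, -4.01, -3.97, -4.32 and -4.04 on the K5,12,16R arrays, -2.35, -2.61, -2.03 and -2.40 on the K8,12,16R arrays, and 0.49, 0.36, 0.45, 0.31 and 0.44 on the K5,8,12R arrays. All arrays with K16R were far below the parental level and all K5,8,12R arrays slightly above it. The difference was -3.42 ± 0.15 (SE), or 10.7-fold lower with K16R (adjusted p = 3.73e-23). STE2, the receptor for alpha-factor, lay at -2.29, -2.71 and -2.68 in K5,8,16R, at -3.54, -3.39, -3.46 and -3.62 in K5,12,16R, at -2.03, -1.99, -1.83 and -2.08 in K8,12,16R, and at -0.03, 0.10, -0.24, -0.12 and 0.10 in K5,8,12R. The 3 groups with K16R did not overlap among themselves either, with K5,12,16R the lowest and K8,12,16R the highest. The difference for STE2 was -2.64 ± 0.12 (6.23-fold lower, adjusted p = 3.86e-23).

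MFA1, BAR1, AGA2 and STE6 had the same order of the 3 mutants. MFA1, the second a-factor gene, was 8.33-fold lower with K16R (-3.06 ± 0.19), BAR1, the protease that degrades alpha-factor, 6.61-fold lower (-2.73 ± 0.13), AGA2, the binding subunit of a-agglutinin, 4.43-fold lower (-2.15 ± 0.14), and STE6, the a-factor exporter, 4.32-fold lower (-2.11 ± 0.15). ASG7 had the smallest difference of the list, -1.13, and was the member that did not differ among the mutants with K16R (F test, adjusted p = 0.59). Differences among the 3 mutants with K16R passed the moderated F test for 6 of the 7 genes, against 8.57% of all genes (475 of 5540). In each of these 6 genes K5,12,16R stood apart from the other pair and was the lowest. The mean log2 ratios of MFA1, for example, were -2.67 ± 0.26 (SD, n = 3) in K5,8,16R, -3.54 ± 0.23 (n = 4) in K5,12,16R and -2.03 ± 0.30 (n = 4) in K8,12,16R, against 0.32 ± 0.21 (n = 5) in K5,8,12R (F test, adjusted p = 5.27e-05 by limma). K5,12,16R had no array against MDY470. On the arrays against MDY453 alone, MFA2 and STE2 kept the order, with K5,12,16R the lowest and K8,12,16R the highest. Whether the parental strain bears on the order was not tested.

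**Figure D2:**
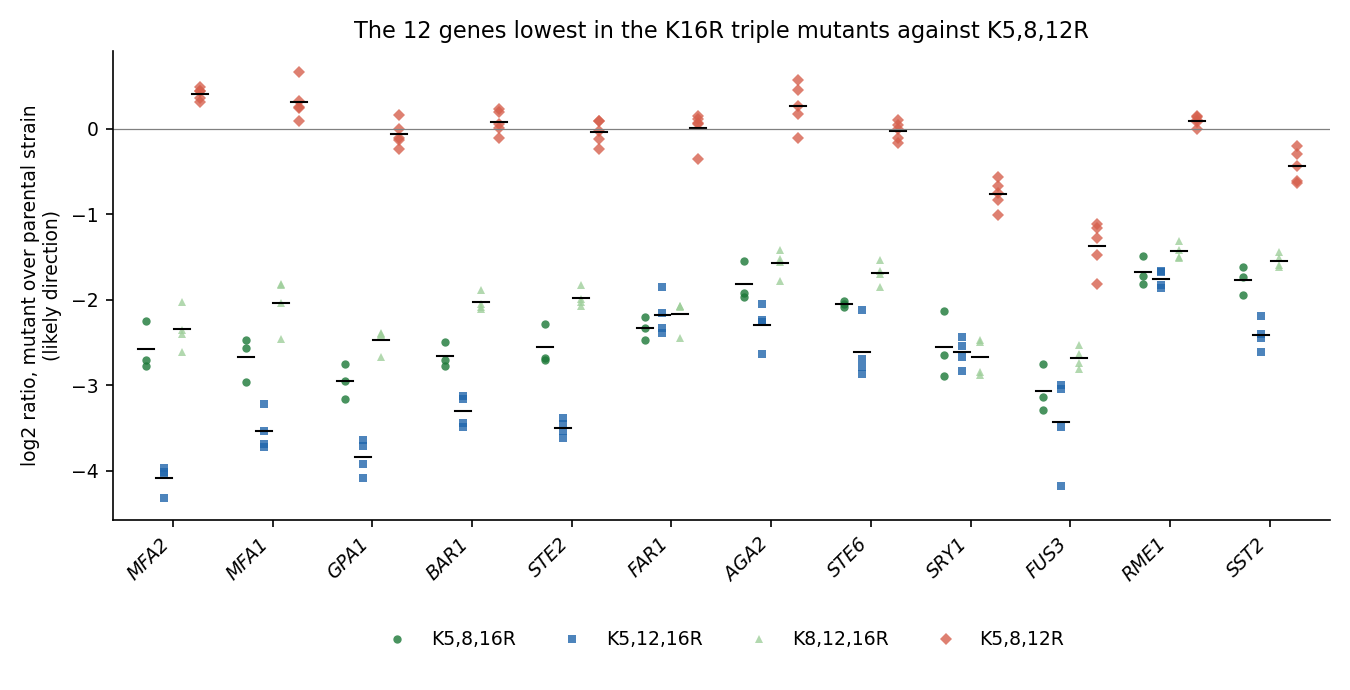
Log2 ratios of the 12 genes with the lowest difference, one point per array and a bar for the mean of each mutant. For every gene the arrays with K16R lie below those of K5,8,12R, and for MFA2, MFA1, GPA1, BAR1 and STE2 the K5,12,16R arrays lie lowest.

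Pheromone signalling genes used by haploid cells of both mating types were also lower with K16R. Of 16 measured, 10 were lower (62.5%, against 9.80% of all genes) and 1 was higher (6.25%, against 7.00%), with a median difference of -0.68. In 9 the arrays with K16R all lay below those of K5,8,12R, against 3.34% of the genes measured on all 16 arrays. GPA1, the G protein alpha subunit, lay at -2.76, -3.16 and -2.95 in K5,8,16R, -4.09, -3.71, -3.92 and -3.64 in K5,12,16R, -2.41, -2.67, -2.39 and -2.40 in K8,12,16R, and -0.10, 0.16, -0.24, -0.13 and -0.00 in K5,8,12R. K5,12,16R again lay below every other array. The difference was -3.02 ± 0.10 (8.10-fold lower, adjusted p = 6.73e-28). The beta subunit STE4 (-1.42 ± 0.11), the gamma subunit STE18 (-1.25), the scaffold STE5 (-1.06 ± 0.08) and the transcription factor STE12 (-0.67) were lower as well. SST2, which ends G protein signalling, differed by -1.49 ± 0.13. STE20, STE50, STE11 and STE7, kinases and a kinase adaptor of the cascade, did not pass, with differences of 0.01, 0.00, 0.07 and 0.20. DIG2, a repressor of STE12, was the gene that was higher, by 0.19.

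FAR1, the factor that halts the cell cycle when pheromone is sensed, did not follow the order of the a-specific genes. It lay at -2.20, -2.48 and -2.33 in K5,8,16R, -2.33, -2.15, -1.85 and -2.38 in K5,12,16R, -2.09, -2.07, -2.07 and -2.45 in K8,12,16R, and 0.15, -0.36, 0.06, 0.07 and 0.12 in K5,8,12R. The 3 groups with K16R overlapped, and they did not differ by the F test (adjusted p = 0.717, limma). The difference from K5,8,12R was -2.24 ± 0.11, or 4.71-fold. FUS3, the MAP kinase of the pathway, was below the parental strain on both sides, with means of -3.06 ± 0.28 (n = 3), -3.43 ± 0.55 (n = 4) and -2.68 ± 0.12 (n = 4) with K16R and -1.37 ± 0.28 (n = 5) in K5,8,12R. Its difference was -1.71 ± 0.16, without overlap of arrays. TEC1, the transcription factor of filamentous growth that works with STE12, changed sides: it was at -0.99, -1.21 and -0.78 in the 3 mutants with K16R and at 0.50 in K5,8,12R, a difference of -1.49 ± 0.11.

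Of the 6 other haploid regulators 5 were lower with K16R (83.3%, against 9.80% of all genes). RME1, the repressor of meiosis, lay between -1.86 and -1.31 on the 11 arrays with K16R (median -1.67) and between -0.00 and 0.15 on the 5 arrays of K5,8,12R, a difference of -1.71 ± 0.08. AMN1, a regulator of exit from mitosis, differed by -0.81 ± 0.10 and RDH54, a helicase of recombination, by -0.79 ± 0.09. NEJ1, which acts in DNA end joining in haploid cells, was low in all 4 mutants, at -2.0, -2.10 and -1.91 with K16R and at -1.41 in K5,8,12R, so that its difference was -0.59 ± 0.09.

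The alpha-specific genes did not go the opposite way. Of 5 measured, 4 were lower (80.0%, against 9.80% of all genes) and 0 higher with K16R (median -0.46). MF(ALPHA)1, which encodes alpha-factor, was above the parental strain in all 4 mutants, with means of 0.72, 0.26 and 1.15 with K16R and 1.28 in K5,8,12R, a difference of -0.54 ± 0.09. STE3, the receptor for a-factor, differed by -0.48 ± 0.14, the agglutinin SAG1 by -0.46 ± 0.11 and AFB1 by -0.39 ± 0.09. The count of 4 fell to 1 within the arrays against MDY453 and to 1 within those against MDY470. Of 15 genes of cell fusion and agglutination that pheromone induces, 5 were lower (33.3%, against 9.80% of all genes) and 0 higher, among them AGA1 (-0.75 ± 0.20), PRM5 (-0.72 ± 0.09) and FUS1 (-0.50 ± 0.12). There was 1 lower within MDY453, and 3 were lower and 1 higher within MDY470.

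No difference passed for the mating-type loci themselves. Of the 6 measured genes of the silent cassettes and MAT, 0 were called (limma; 0 at an unadjusted p under 0.05), with differences from -0.34 ± 0.29 for MATALPHA1 to 0.11 ± 0.15 for HMLALPHA1. HMRA1 differed by -0.22 ± 0.20, HMRA2 by 0.08 ± 0.20, HMLALPHA2 by -0.06 ± 0.18 and MATALPHA2 by 0.03 ± 0.18. Probes for near-identical copies can cross-hybridise, and MAT shares its sequence with the cassettes, so these spots do not tell the loci apart. MATALPHA1 lay at -2.18 on the second K5,8,16R array and between 0.12 and 1.10 on the other 15. The silencing genes SIR1, SIR2, SIR3 and SIR4 had 0 calls, 0 at an unadjusted p under 0.05, and differences between -0.04 and 0.13. Of 24 genes on a list of histone acetyltransferases, deacetylases and associated chromatin factors, which also holds a histone methyltransferase, bromodomain proteins and a histone chaperone, 0 were called, 1 at an unadjusted p under 0.05, with differences from -0.27 to 0.24. In a culture, fewer cells that express a gene and less RNA per cell cannot be told apart by these arrays.

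Genes close to a chromosome end were lower with K16R more often than genes in the interior. Of 237 genes within 20 kb of an end (taken as where the outermost annotated gene of the chromosome ends), 92 were lower and 5 higher, with a median difference of -0.22. The lower share was 32.8% within 5 kb, 42.4% from 5 to 10 kb, 40.4% from 10 to 20 kb, 13.6% from 20 to 40 kb and 8.22% beyond. Median levels in the first of these classes were -0.0193 in K5,8,12R and -0.189 with K16R, and beyond 40 kb they were 0.0 and 0.0042. Without the seripauperin (PAU) family, 74 of 219 were lower. The count of 92 was 16 within the arrays against MDY453, 86 within those against MDY470, and 58 without the first K5,8,12R array, which is the 1 array of strain MDY482 and of MDY470 in that group.

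**Figure D3:**
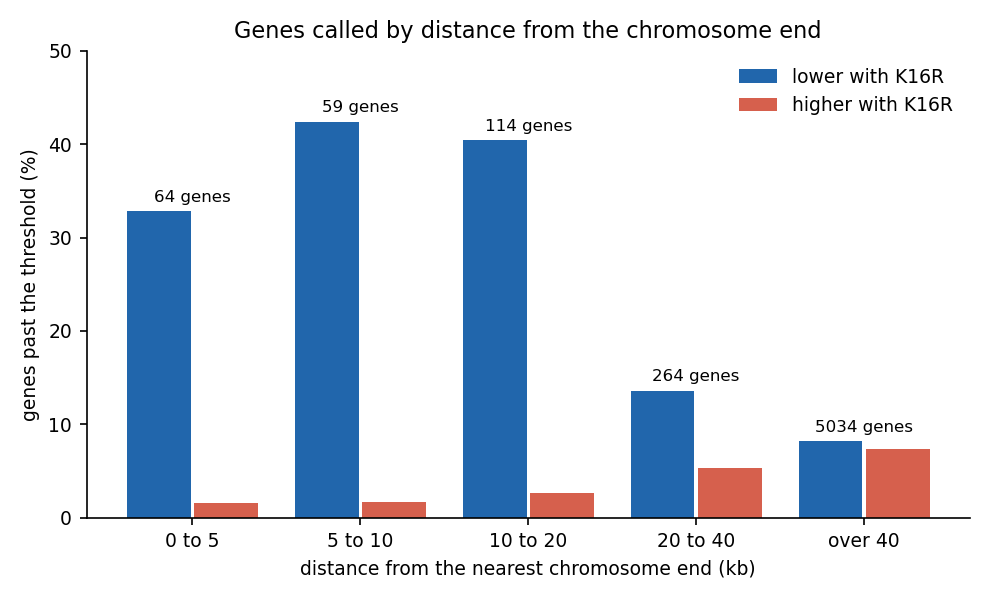
Share of genes past the threshold, lower (blue) or higher (red) with K16R, by distance from the nearest chromosome end; the number of genes stands above each class. The lower share is 32.8 to 42.4% in the 3 classes within 20 kb and 8.22% beyond 40 kb, whereas the higher share goes from 1.56% to 7.33%.

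The end-proximal genes with the strongest evidence were low with K16R and less so in K5,8,12R. SRY1, an enzyme that breaks down hydroxyaspartate, lay at -2.65, -2.89 and -2.13 in K5,8,16R, -2.83, -2.66, -2.54 and -2.44 in K5,12,16R, -2.88, -2.50, -2.85 and -2.47 in K8,12,16R, and -1.0, -0.84, -0.56, -0.75 and -0.66 in K5,8,12R. The groups with and without K16R did not overlap, and the 3 mutants with K16R did not differ by the F test (adjusted p = 0.926). Its difference was -1.83 ± 0.14, or 3.56-fold. FDC1, a decarboxylase of aromatic acids, was at -1.02, -1.43 and -1.21 with K16R and at -0.14 in K5,8,12R (-1.09 ± 0.09). ARR2, the arsenate reductase, differed by -0.94 ± 0.08. COS9, of a family of genes found near chromosome ends, differed by -0.76 ± 0.10. Of the 11 COS genes 2 were called, both lower (18.2%, against 9.80% of all genes). All 11 differences were below 0, with a median of -0.21. SNZ2, SNO2 and SNO3, end-proximal genes of vitamin B6 synthesis, differed by -0.76 ± 0.13, -0.77 ± 0.15 and -0.66 ± 0.14. YKL222C, at 1.7 kb from an end, differed by -1.49 ± 0.12.

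In the reference annotation 55 reading frames without a gene name recur at the same pair of lengths, and 17 of them were measured. The set of 17 was lower throughout with K16R. This set was put together after its values were seen, so its count of 17 of 17 and its median of -1.06 are a description. YMR051C lay at -0.72, -0.58 and -0.81 in K5,8,16R, -0.46, -0.98, -1.04 and -0.92 in K5,12,16R, -0.25, -0.54, -0.08 and -0.28 in K8,12,16R, and 0.64, 0.61, 0.64, 0.77 and 0.80 in K5,8,12R. It was thus below the parental strain on every array with K16R and above it on every array of K5,8,12R. The difference was -1.31 ± 0.16, and it was -1.26 ± 0.14 for YML045W. Such near-identical copies can share probe signal, so the 17 values are not independent.

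A second kind of lower gene lay above the parental level in all 4 mutants, and farther above it in K5,8,12R. Of 54 genes of the general stress response, 28 were lower with K16R (51.9%, against 9.80% of all genes) and 0 higher (median -0.31). The median levels of the list were 0.65 in K5,8,16R, 1.05 in K5,12,16R, 0.95 in K8,12,16R and 1.18 in K5,8,12R. RIM4, an RNA-binding regulator of meiosis that is also on the stress list, lay at 1.38, 1.19 and 1.36 in K5,8,16R, 2.49, 1.99, 2.38 and 2.37 in K5,12,16R, 1.71, 1.06, 1.43 and 1.64 in K8,12,16R, and 2.95, 2.64, 2.60, 2.98 and 2.80 in K5,8,12R. No array with K16R reached those of K5,8,12R, and K5,12,16R came closest. Its difference was -1.10 ± 0.12 (adjusted p = 1.05e-09). MSC1 differed by -0.95 ± 0.13, the stress-induced repressor XBP1 by -0.78 ± 0.12 and RTN2, a reticulon of the endoplasmic reticulum, by -0.68 ± 0.08. The count of 28 was 8 within MDY453, 26 within MDY470, and 10 when all arrays were scaled to the same spread, with list medians of -0.31, -0.40 and -0.09. The heat shock chaperones did not share this: of 30 measured, HSP42 alone was lower (-0.33 ± 0.10) and the list median was 0.04.

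The PAU genes, anaerobically induced cell wall proteins of the seripauperin family, were lower with K16R in 22 of 23 cases (median -0.47). This share was 95.7%, against 9.80% of all genes. Their median levels were 0.53, 0.72 and 0.86 in the mutants with K16R and 1.13 in K5,8,12R. PAU12 lay at 0.46, 0.40 and 0.43 in K5,8,16R, 0.75, 0.52, 0.79 and 0.54 in K5,12,16R, 0.78, 0.86, 0.86 and 0.88 in K8,12,16R, and 1.81, 1.19, 0.92, 0.95 and 0.85 in K5,8,12R. The first K5,8,12R array was the highest and the fifth lay within the range of K8,12,16R. Without that first array 1 of 23 was lower (median -0.24). Within MDY470 all 23 were called by limma, within MDY453 0 were (1 at an unadjusted p under 0.05), and after scaling to the same spread 0 were (9 unadjusted). PAU genes have near-identical sequences and their probes can share signal.

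Some metabolic and cell wall genes were lower as well. PUT1, the proline oxidase, averaged 1.52, 2.13 and 1.92 with K16R and 2.87 in K5,8,12R (-0.96 ± 0.19), and the next enzyme, PUT2, differed by -0.45 ± 0.10. BNA1, an enzyme of NAD synthesis from tryptophan, lay between 0.15 and 0.72 on the arrays with K16R and at 1.29, 1.22, 1.59, 1.11 and 1.29 in K5,8,12R, a difference of -0.78 ± 0.09. Of 39 cell wall genes 14 were lower (35.9%, against 9.80% of all genes) and 5 higher (12.8%, against 7.00%) in the mean of the 3 mutants. These mutants differed in direction: the median difference of the list was -0.25 for K5,8,16R and -0.19 for K8,12,16R but 0.18 for K5,12,16R. The 14 became 3 within MDY453 and 7 after scaling to the same spread. GSC2, the alternative glucan synthase subunit, differed by -0.71 ± 0.11 and the mannoprotein TIP1 by -0.62 ± 0.09, whereas MNN1, a mannosyltransferase, was higher by 0.49 ± 0.07. Of 24 vitamin B6 and thiamine genes 11 were lower (45.8%, against 9.80% of all genes) and 0 higher. The 11 became 2 within MDY453 and 6 after scaling. Besides the SNZ and SNO genes, THI22 differed by -0.45 ± 0.07. The high-affinity hexose transporter genes HXT6 (-0.54 ± 0.12) and HXT7 (-0.44 ± 0.11) were lower and the low-affinity HXT1 was higher (0.40 ± 0.10). Of the 19 genes of that list 4 were lower (21.1%, against 9.80% of all genes) and 1 higher (5.26%, against 7.00%). The 4 became 1 within MDY453 and 0 after scaling, and the 1 higher became 0 in both.

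Genes of G2/M and of M/G1 had a share of lower genes above the 9.80% of all genes. Of 21 genes of G2/M, 5 were lower (23.8%) and 0 higher, among them FRK1, a protein kinase (-0.66 ± 0.07), CDC20, the activator of the anaphase-promoting complex (-0.38 ± 0.05), and SWI5, a transcription factor of daughter-cell genes (-0.36 ± 0.09). Of 21 genes of M/G1 and daughter-cell separation 7 were lower (33.3%) and 1 higher (4.76%, against 7.00% of all genes); beyond RME1, TEC1 and AMN1, which also belong to the lists above or work with them, the chitinase CTS1 differed by -0.62 ± 0.10. Within MDY453 the lower counts were 2 and 4. Of 42 meiosis and sporulation genes 14 were lower (33.3%) and 3 higher (7.14%, close to the share of all genes). The 14 became 8 without the first K5,8,12R array, 4 within MDY453, 9 within MDY470 and 6 after scaling. GAS2, a glucan-modifying enzyme of the spore wall, lay between -0.10 and 0.37 with K16R and between 0.87 and 1.20 in K5,8,12R (-0.92 ± 0.09). IME4, the messenger RNA methyltransferase of meiotic entry, lay between -0.98 and -0.47 with K16R and between -0.00 and 0.26 in K5,8,12R (-0.87 ± 0.09).

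The genes that were higher with K16R differed by less than 2-fold, and most of them lay within 0.5 of the parental strain on both sides. PHM6, a gene induced by phosphate starvation, lay at 0.24, -0.00 and -0.02 in K5,8,16R, -0.42, -0.78, -0.46 and -0.56 in K5,12,16R, -0.14, -0.17, -0.09 and -0.29 in K8,12,16R, and -1.35, -1.15, -0.84, -0.95 and -1.15 in K5,8,12R. All K5,8,12R arrays were the lowest, and K5,12,16R lay between them and the other pair. The difference was 0.91 ± 0.11, or 1.88-fold (adjusted p = 1.85e-08). PHO81, the inhibitor of the Pho80-Pho85 kinase, was below the parental strain everywhere, at -0.83, -1.57 and -1.39 with K16R and -1.95 in K5,8,12R (0.66 ± 0.11), and PHO8, the vacuolar alkaline phosphatase, differed by 0.44 ± 0.08. A list of 24 phosphate genes also held some that phosphate does not regulate, PHO3 among them. Of the 24, 7 were higher (29.2%, against 7.00% of all genes) and 2 lower (8.33%, against 9.80%). The latter were PHO3 and PHM8 (-0.37 and -0.49). The 7 became 4 without the first K5,8,12R array, 3 within MDY453, 4 within MDY470 and 4 after scaling.

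ARG1, the argininosuccinate synthase, lay above the parental level on both sides. It lay at 1.14, 1.12 and 1.30 in K5,8,16R, 1.29, 1.29, 1.54 and 1.45 in K5,12,16R, 1.20, 0.97, 1.08 and 1.17 in K8,12,16R, and 0.53, 0.51, 0.27, 0.29 and 0.40 in K5,8,12R. The arrays did not overlap, and the difference was 0.82 ± 0.13. KEI1, a subunit of inositol phosphorylceramide synthase, was close to the parental strain with K16R (-0.38 to -0.07) and lower in K5,8,12R (-1.11 to -0.83), a difference of 0.74 ± 0.08. NCA3, of a family of cell wall proteins, differed by 0.76 ± 0.10, the sporulation gene SPS4 by 0.73 ± 0.09 and the spore wall gene SPO77 by 0.64 ± 0.09. HPF1, a cell wall mannoprotein, differed by 0.69 ± 0.14 and by 0.10 within MDY470. The iron transporter gene FET4 differed by 0.66 ± 0.18, DFP2 by 0.69 ± 0.12 and YOL014W by 0.81 ± 0.11. The value of 0.80 ± 0.19 for YPL077C rests on the first K5,8,12R array, at -2.59 against -0.66 to -0.31 on the other 4, and was 0.19 without it.

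**Figure D4:**
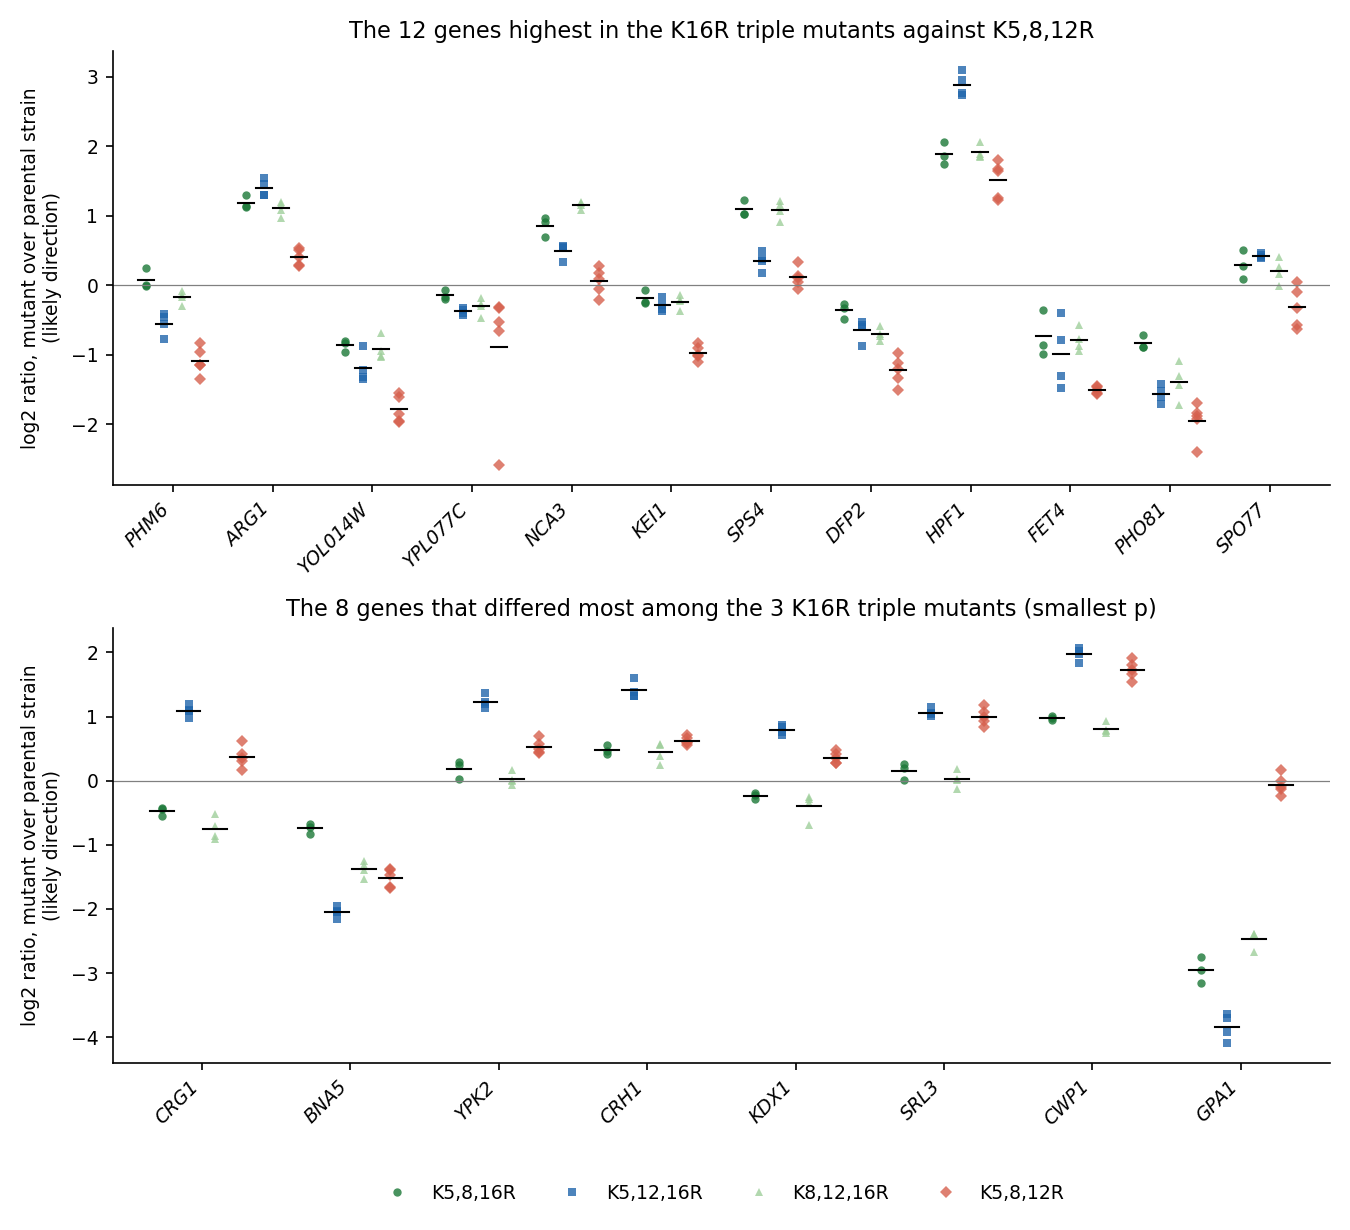
Log2 ratios per array, with a bar for the mean of each mutant, of the 12 genes with the highest difference (top) and of the 8 genes that differed most among the mutants with K16R (bottom). In the top panel K5,8,12R lies lowest on average for each gene, and for YPL077C 1 array at -2.59 sets its mean; in the bottom panel K5,12,16R is the farthest from the other mutants with K16R in each gene.

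Ribosome assembly genes were the largest group on the higher side. Of 88 measured, 37 were higher (42.0%, against 7.00% of all genes) and 0 lower (median 0.21). Median levels were -0.06, -0.21 and -0.07 with K16R and -0.35 in K5,8,12R. The rRNA methyltransferase RRP8 differed by 0.38 ± 0.08, the assembly factor SSF1 by 0.33 ± 0.07, and the RNA helicases HAS1 and SPB4 by 0.30 ± 0.07 and 0.28 ± 0.06. These are small differences. The 37 calls were 1 within MDY453 and 7 after scaling to the same spread, where the 388 higher calls over all genes were 33 and 142. In both settings and within MDY470 the list median stayed between 0.14 and 0.24. The genes of the ribosomal proteins themselves had 0 calls of 133 by limma (6 at an unadjusted p under 0.05, median 0.03), and the proteasome had 0 of 34 (2 unadjusted).

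**Figure D5:**
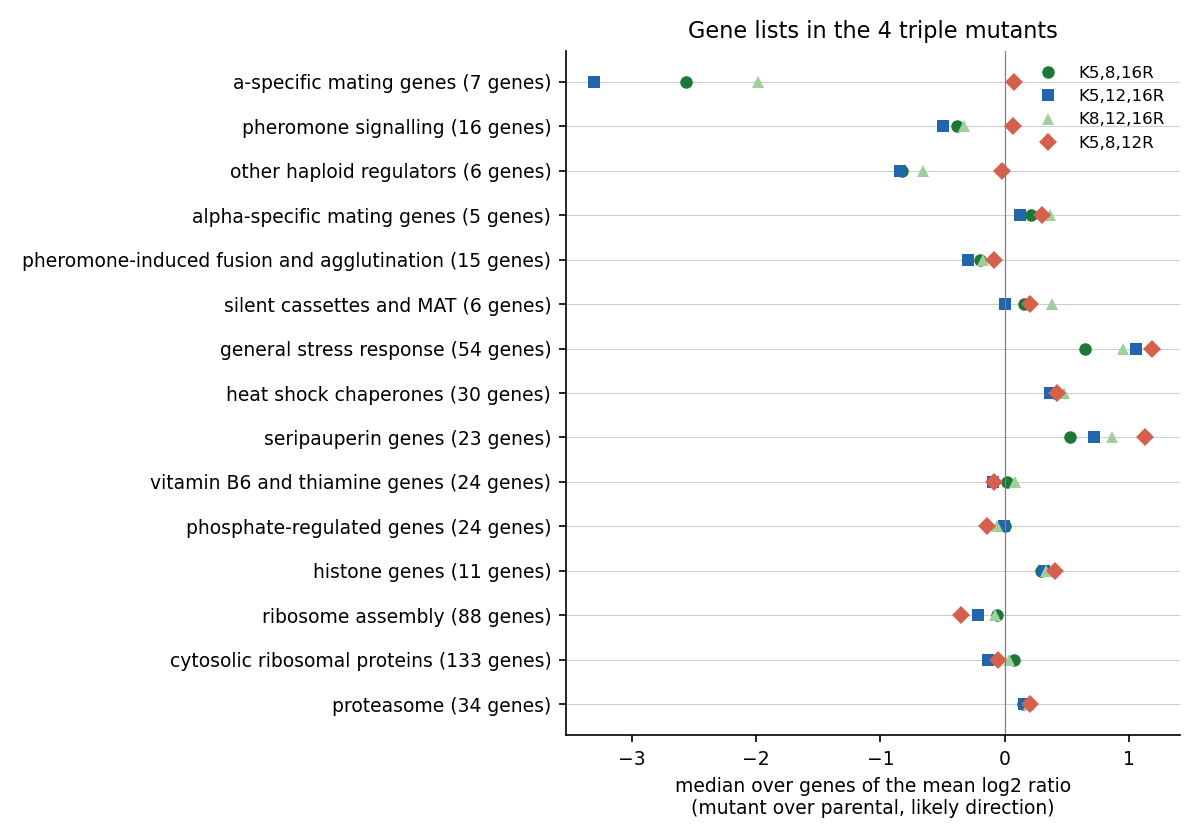
Median over each list's genes of the mean log2 ratio in each of the 4 triple mutants, with the number of measured genes in brackets. K5,8,12R lies near 0 for the a-specific and haploid lists and farthest right for the stress and seripauperin lists, and K5,12,16R lies lowest of the 4 for the a-specific genes (-3.30).

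The remaining lists had small numbers of calls in the mean of the 3 mutants. Over all genes 9.80% were lower and 7.00% higher. Of 11 histone genes, HTB1 and HTB2 were lower (18.2%), with differences of -0.31 ± 0.10 and -0.29 ± 0.09. Neither passed without the first K5,8,12R array, without the second, within MDY453 or after scaling. Of 38 oxidative phosphorylation genes 3 were lower (7.89%) and 0 higher. The 3 were COX5B (-0.48 ± 0.10), NDE1 (-0.37 ± 0.10) and SDH4 (-0.27 ± 0.09). The list median was -0.29 for K5,8,16R and -0.13 for K8,12,16R but 0.19 for K5,12,16R. Of 26 genes of the citrate cycle and gluconeogenesis 5 were lower (19.2%) and 1 higher (3.85%), with LSC2 at -0.65 ± 0.09. Arginine and proline genes were higher in 3 and lower in 3 of 21 cases (14.3% each). NAD genes were higher in 1 (7.14%) and lower in 3 (21.4%) of 14 cases. Sulfur genes were higher in 2 (6.45%) and lower in 1 (3.23%) of 31 cases. Phospholipid genes were higher in 2 and lower in 2 of 19 cases (10.5% each). Purine genes were higher in 2 (10.5%) and lower in 0 of 19 cases, the 2 being ADE17 (0.46 ± 0.12) and ADE12 (0.34 ± 0.12).

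Each mutant with K16R was also set against K5,8,12R alone. These 3 comparisons share the 5 K5,8,12R arrays. K5,8,16R differed in 853 genes (15.4%), K8,12,16R in 669 (12.1%) and K5,12,16R in 477 (8.61%). Leaving out 1 array changed these counts most when it was the array of the second strain of the mutant: 853 became 540 without the first K5,8,16R array, 669 became 442 without the first K8,12,16R array and 477 became 289 without the third K5,12,16R array. All 7 a-specific genes were lower in each, with medians of -2.51, -3.35 and -1.95 for K5,8,16R, K5,12,16R and K8,12,16R. Over all genes, 10.2%, 4.75% and 7.56% were lower and 5.20%, 3.86% and 4.51% higher, in the same order. Stress genes were lower in 33, 7 and 21 of 54 cases, and ribosome assembly genes higher in 33, 3 and 26 of 88. Chromosome-end genes were lower in 80, 50 and 58 of 237. Cell wall genes were lower in 17, 2 and 15 of 39 cases and higher in 2, 11 and 1, so that K5,12,16R had mostly higher ones. Oxidative phosphorylation genes were lower in 9, 1 and 3 of 38 cases and higher in 0, 7 and 0.

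Differences among the mutants with K16R themselves passed the F test in 475 genes (8.57%). In 394 of these K5,12,16R was the mutant farthest from the mean of the other pair, 310 times higher and 84 times lower. K5,8,16R was the farthest in 53 and K8,12,16R in 28. The count of 475 was 227 without the third K5,12,16R array, the 1 array of strain MDY484, and 83 within the arrays against MDY453. The cell wall list stood out by its share, with 27 of 39 genes past the F test and K5,12,16R the highest in all 27. Oxidative phosphorylation genes passed in 21 of 38 cases, 19 of them with K5,12,16R apart and higher, and stress genes in 24 of 54, 15 of them likewise.

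The genes with the smallest p among the mutants with K16R show this pattern. CWP1, a cell wall mannoprotein, lay at 0.95, 1.0 and 0.98 in K5,8,16R, 1.84, 1.98, 2.07 and 2.02 in K5,12,16R and 0.74, 0.78, 0.78 and 0.92 in K8,12,16R. K5,8,12R, at 1.81, 1.91, 1.53, 1.66 and 1.73, was close to K5,12,16R and not to the other mutants with K16R. CRG1, a methyltransferase, was on opposite sides of the parental strain, at -0.47 ± 0.07 (n = 3) and -0.75 ± 0.18 (n = 4) in K5,8,16R and K8,12,16R and at 1.09 ± 0.09 (n = 4) in K5,12,16R (F test by limma, adjusted p = 1.04e-15). The kinases YPK2 and KDX1, the wall cross-linking enzyme CRH1 and SRL3 were also higher in K5,12,16R, at 1.23, 0.80, 1.41 and 1.06. BNA5, the kynureninase of NAD synthesis, was lower there, at -2.05 against -0.74 in K5,8,16R and -1.37 in K8,12,16R. PHO5, the secreted acid phosphatase, was at 1.15, 0.85, 1.03 and 1.19 in K5,12,16R and below 0 on all 7 arrays of the other mutants with K16R. CSS1 averaged 2.05 there against 1.18 and 1.16.

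The same exchange of K16R for another substitution was examined in double and single mutants. In the 22 samples of double mutants it was the mean of K5,16R, K8,16R and K12,16R minus the mean of K5,8R, K5,12R and K8,12R. In the 12 samples of single mutants it was K16R minus K5R, K8R and K12R averaged. The parental strains were not balanced, since MDY470 served a larger share of the doubles without K16R than of those with it. Among the singles it served a larger share of the K16R arrays than of the others. The difference in the triple mutants departed from that in the doubles for 55 genes (0.993%) and from that in the singles for 36 (0.650%). The first count was 19 without the first K5,8,12R array, 28 without the first K8,12,16R array and 27 without the fourth K5,8,12R array, and the second was 18 without the first K5,8,12R array. With the parental strain as a fixed block the counts were 60 and 38. Within MDY453 the doubles lacked K8,12R, which had no array there, and K5,12R and the K16R single mutant had no replicate. Within MDY470 the triples lacked K5,12,16R, and the other triple mutants had no replicate. The fits within a parental strain, given with the processing below, therefore cannot decide whether these genes depart there.

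YKL222C and RTN2 departed in both. YKL222C differed by -1.49 in the triples, -0.35 in the doubles and -0.08 in the singles. It lay between -2.89 and -1.51 on the arrays with K16R and at -0.86, -0.62, -0.66, -0.65 and -0.67 in K5,8,12R. RTN2 differed by -0.68, -0.06 and 0.07 in the same order. NEJ1 went the other way, since its difference was smaller in the triples (-0.59) than in the doubles (-1.22) and singles (-1.70). MFA2 differed by -3.42 in the triples and -2.31 in the doubles, MF(ALPHA)1 by -0.54 and 0.19, and HBT1, a protein of mating projections, by -0.46 and -0.05. SNZ2 and SNO3 had smaller differences in the triples (-0.76 and -0.66) than in the singles (-2.18 and -1.87). COS12 differed by -0.35 in the triples, which did not pass, and by 1.14 in the singles.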

How the data were processed

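The deposited series table holds a log2 ratio for each probe and array, as base 2 was inferred from its largest size, 6.64, the log2 of 100; dyes, direction, background correction and normalization by the authors were not given in the sources used. Values at that limit were set to missing (20 in named probes of the 16 arrays). Of 6720 probes, 5570 have 1 gene in the platform annotation and 1150 have none and were left out; 5565 matched the R64 gene table, used for names and for distance to chromosome ends. Probes were averaged per gene (5540 genes) and arrays centred on the median.

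All 54 samples (a technical pair averaged) were fitted in limma 3.58.1 (R 4.3.3; lmFit, eBayes, two-sided) with 1 mean per mutant, the mutant strain as random block (correlation 0.205) and a Benjamini-Hochberg threshold of 0.05 over 5540 genes. Effects ± SE come from this fit, means ± SD from the arrays. The code was tested on simulated data.

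Named genes were the 12 highest and 12 lowest past the threshold with the 3 mutants on 1 side, 3 per direction for each mutant with K16R, the 8 or 6 smallest p of the F and difference tests, up to 4 members of each of 30 lists, and all cassette, MAT and SIR genes. ASG7, STE18, STE12, STE20, STE50, STE11, STE7, DIG2 and PHO3 were named after their values were seen. The members and the lists were chosen with earlier results of these data known. No sequence is shown.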

Additional observations from a re-analysis of the deposited data

Results flagged for a closer look

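Of 75 groups of arrays looked at for a single array far from the others, 6 held one, where chance gives about 1 in 20. NCA3 was 0.3373 on the first K5,12,16R array, against 0.54 to 0.57 on the other 3. GPA1 was -2.6684 on the second K8,12,16R array, against -2.41 to -2.39. FAR1 was -2.4509 on the fourth K8,12,16R array (-2.09 to -2.07 on the others) and -0.3575 on the second K5,8,12R array (0.06 to 0.15 on the others). YPL077C was -2.5906 on the first K5,8,12R array, against -0.66 to -0.31. The SD over genes of the log2 ratios was 0.4069 on the fifth K5,8,12R array, against 0.449 to 0.466 on the other 4.

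For the genes below, the difference between mutants with and without K16R changed with the number of substitutions by a test of the change itself (limma). Triple minus double differences were -1.1148 ± 0.191 (SE) for MFA2 (adjusted p = 0.000666), -1.1434 ± 0.149 for YKL222C (4.66e-06), -0.7386 ± 0.118 for MF(ALPHA)1 (0.000298), -0.6181 ± 0.101 for RTN2 (0.000314), 0.6354 ± 0.112 for NEJ1 (0.000959) and -0.4063 ± 0.0739 for HBT1 (0.00145). Triple minus single differences were -1.4069 ± 0.178 for YKL222C (adjusted p = 1.09e-06, limma), -0.7529 ± 0.12 for RTN2 (0.000159), 1.113 ± 0.134 for NEJ1 (5.39e-07), 1.4158 ± 0.199 for SNZ2 (1.05e-05), 1.2045 ± 0.206 for SNO3 (0.000516) and -1.4937 ± 0.259 for COS12 (0.000516).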

How the results depend on the processing

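The 931 called genes (894 where complete genes alone were kept) held their sign under every alternative but the fits within 1 parental strain; over all probes signs were not compared. Under the alternatives compared, parental fits included, 0 of the called genes named in the text turned sign. All alternatives reuse arrays that called the genes, so the kept signs are a description. The counts moved more. For all, higher and lower genes (931, 388 and 543) they were 1751, 789 and 962 with the 16 arrays alone, 1525, 709 and 816 without the strain block, 577, 220 and 357 with 1 value per strain, 152, 33 and 119 within MDY453, 618, 201 and 417 within MDY470, and 416, 142 and 274 with arrays scaled to 1 spread. Leaving out 1 array gave 727 to 955, 274 to 406 and 453 to 553. For K5,8,16R, K5,12,16R and K8,12,16R (853, 477 and 669) they were 1365, 1160 and 1354 with the 16 arrays alone, 944 and 1189 for the latter pair without the strain block and 278 and 379 with 1 value per strain, 111, 132 and 59 within MDY453, 524 for K5,8,16R and 354 for K8,12,16R within MDY470, and 355, 191 and 344 scaled. Leaving out 1 array gave 540 to 879, 289 to 506 and 442 to 687. The F test (475) gave 919 with the 16 arrays, 802 without the strain block, 83 within MDY453, 200 scaled and 227 to 516 without 1 array. Within MDY470 it has no counterpart, since K5,12,16R had no array there and K5,8,16R and K8,12,16R had no replicate. The triple minus double and triple minus single tests (55 and 36) gave 167 and 159 without the strain block, 9 and 10 with 1 value per strain, 0 and 0 within MDY453 (limma; 118 and 93 unadjusted), 221 and 159 within MDY470, 19 to 62 and 18 to 47 without 1 array, and for the singles 97 scaled. Uncentred arrays, values at the limit, complete genes, all probes and the parental strain as a block kept these counts within 1.5-fold. The causes were not tested.

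The replicate mark of the title pairs no samples by the labels. Deviations of same-mark arrays correlated between 0.0339 and 0.481 (19 pairs, median 0.268), those of different marks had a median of -0.0721 (76 pairs), and 10 of 16 arrays correlated best with an array of their own mark. With the mark as a replicate block 1280 genes were called, 786 for K5,12,16R, and 132 and 129 for the triple minus double and single tests. In that fit 8 fusion, 9 G2/M and 5 oxidative phosphorylation genes were lower, and 11 genes of the phosphate list and 3 heat shock genes higher.

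The few arrays per mutant, 2 strains each and a single K5,8,12R array against MDY470 limit these results, and the test leaves out the parental strain's own spread.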
